A study of Mus musculus with 8 samples.

Results

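C/EBPα occupancy was examined around 8 genes that encode GATA, SCL and erythroid regulators, Gata1, Gata2, Tal1, Lmo2, Lyl1, Gfi1b, Klf1 and Epor, out of 21887 protein-coding genes annotated in the mouse. They were chosen by name, with earlier results of these data known. Peaks of 6 anti-C/EBPα libraries that shared at least 1 bp were merged into 259446 regions, and the 210 regions within 50 kb of a gene body of these 8 genes form the data described below. CUT&RUN releases DNA next to an antibody-bound protein with a tethered nuclease, and it was run on bone marrow progenitors sorted as Lin- KIThi-int FLT3+. The cells came from mice with the Zeb2 -165-kb enhancer in 1 of 3 forms, the variants DC and DE and the WT form, with 2 libraries each. Replicate 1 of every genotype belonged to batch 1 and replicate 2 to batch 2. The nature of the DC and DE changes, the age of the mice and any pooling of animals were not given in the sources used here. Since nothing in the labels ties the replicates to separate animals, each p-value below reflects no more than the spread among these libraries, which may be technical. A region called in both libraries of a genotype is termed DC-shared, DE-shared or WT-shared. IgG libraries of WT cells were not analysed here, so no antibody background was measured.

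GATA2 and its erythroid relative GATA1 are zinc-finger factors that bind the letters GATA, and GATA2 acts mainly in stem cells, early progenitors and mast cells. TAL1 (SCL) and its paralog LYL1 are helix-loop-helix factors that pair with E proteins on E-boxes, and LMO2 bridges them to GATA factors in one complex. GFI1B is a transcriptional repressor that acts in the erythroid and megakaryocyte lineages. KLF1 activates globin and other red cell genes, and EPOR is the receptor for erythropoietin. C/EBPα is the myeloid factor measured here, and it is known to drive granulocyte and monocyte fate.

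Promoters of 5 genes are shown because they hold letters bound by C/EBP, GATA, E-box or ETS factors before the start, and the occupancy of each one follows. The sequences are RefSeq's for build GRCm38.p6, which has the same coordinates as mm10. Each runs 5′ to 3′ on the strand of the gene and ends at the base before the annotated gene body. Capitals mark matches on either strand to TTGCNNAA for C/EBP, to AGATAA and the similar TGATAA for GATA factors, to CAGNTG for the E-box and to CGGAAG for ETS factors.
Tal1 (chr4:115056176-115056425, plus strand): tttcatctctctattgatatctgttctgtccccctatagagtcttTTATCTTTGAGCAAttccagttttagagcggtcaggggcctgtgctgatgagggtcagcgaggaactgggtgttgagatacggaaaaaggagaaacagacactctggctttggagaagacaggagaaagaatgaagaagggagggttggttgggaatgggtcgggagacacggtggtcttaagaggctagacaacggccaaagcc
Lyl1 (chr8:84701207-84701422, plus strand): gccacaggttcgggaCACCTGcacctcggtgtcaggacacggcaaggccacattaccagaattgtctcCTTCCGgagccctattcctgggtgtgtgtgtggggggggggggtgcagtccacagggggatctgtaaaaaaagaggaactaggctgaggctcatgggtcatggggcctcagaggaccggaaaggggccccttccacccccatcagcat
Gfi1b (chr2:28621983-28622232, minus strand): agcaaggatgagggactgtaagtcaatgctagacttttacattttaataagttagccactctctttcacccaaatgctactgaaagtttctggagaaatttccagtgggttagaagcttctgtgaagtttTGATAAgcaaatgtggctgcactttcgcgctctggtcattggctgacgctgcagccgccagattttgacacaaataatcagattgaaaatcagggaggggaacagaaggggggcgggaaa
Klf1 (chr8:84901732-84901981, plus strand): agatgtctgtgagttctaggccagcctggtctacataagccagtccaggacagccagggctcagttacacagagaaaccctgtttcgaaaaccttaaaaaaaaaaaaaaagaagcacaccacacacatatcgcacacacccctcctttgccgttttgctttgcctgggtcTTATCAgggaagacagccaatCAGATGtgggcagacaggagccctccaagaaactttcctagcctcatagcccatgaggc
Epor (chr9:21963577-21963826, minus strand): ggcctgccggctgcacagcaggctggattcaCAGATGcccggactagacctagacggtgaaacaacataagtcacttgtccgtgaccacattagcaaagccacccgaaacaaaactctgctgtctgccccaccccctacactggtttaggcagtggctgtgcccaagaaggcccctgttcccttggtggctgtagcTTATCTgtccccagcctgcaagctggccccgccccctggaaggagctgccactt

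Of these stretches, the Tal1 one holds the single C/EBP match, TTGAGCAA, which lies 199 bases before the annotated start and directly after a GATA match. No region was called over it in any library: the Tal1 start region begins inside the gene. Tal1 has a second annotated start, at chr4:115057811, which is not printed. Its promoter window holds none of the marked letters and overlapped that start region, which was called in all 6 libraries. The Gfi1b promoter holds TGATAA 120 bases before its start, and a region over that window was called in 4 libraries. The Lyl1 promoter, with an E-box and an ETS match, lay under a region called in all 6 libraries. The first Gata2 promoter, which holds none of the marked letters, overlapped a region called in 5 libraries. The Klf1 and Epor promoters each hold a GATA and an E-box match, and no region touched either window. Shares were taken over 32851 promoter windows of the same build, with 250 bases before and 50 after the start. The printed stretches end at the gene body and are shorter. Of these windows, 10.8% hold TTGCNNAA, 18.6% hold a GATA match of either kind, 51.4% hold CAGNTG and 16.9% hold CGGAAG, so single matches are common. Matches to the KLF letters CCNCNCCC, which 49.5% of windows hold, were also searched and are not marked. A match is a description of letters, not a site of binding.

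The peak lists held 169943 and 50221 peaks in DC, 52474 and 57441 in DE, and 82080 and 56940 in WT, in the order of replicates 1 and 2. Read totals were not analysed here, so depth is unknown. The number of fragments over a summit, called the pileup, was recovered as a whole number from the deposited fold and p-value for at least 99.986% of peaks in every library. Its median at regions called in all libraries was 58 and 24 in DC, 42 and 32 in DE, and 34 and 34 in WT. DC replicate 1 stands apart by its list, and 43.6% of all merged regions were called in that library only. Pileups are therefore given after scaling between libraries on the regions called in all 6, and a count that rests on DC replicate 1 is named as such. Fewer bound cells and less binding per cell cannot be told apart in such sorted populations.

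The 8 gene windows held 154 and 69 regions in the DC libraries, 71 and 73 in the DE libraries and 77 and 73 in the WT libraries. DC replicate 1 was the highest by far, and the other 5 libraries lay between 69 and 77. Of the 210 regions, 125 were called in 1 library, and 76 of these in DC replicate 1 alone, or 36.2% of the 210. All 6 libraries shared 37 regions, where 9.05% of all merged regions were shared by all 6. There were 61 DC-shared, 54 DE-shared and 51 WT-shared regions. The matching shares of all merged regions were 14.0%, 12.9% and 12.1%. A window can hold other genes, and 83 of the 210 regions and 13 of the 37 shared ones had one of the 8 genes as the nearest protein-coding gene.

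**Figure D1:**
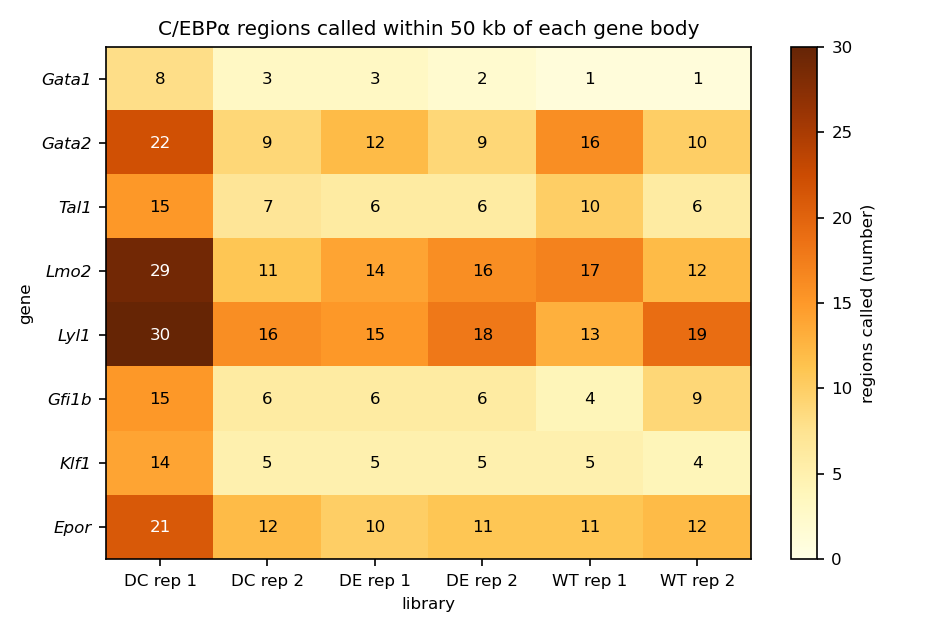
Number of C/EBPα regions called within 50 kb of each gene body (rows) in each library (columns: DC, DE and WT, replicates 1 and 2). The DC replicate 1 column is darkest for all 8 genes, from 8 regions at Gata1 to 30 at Lyl1, and the Gata1 row is lightest, with 1 region in each WT library.

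All of the genes but Gata1, 7 of the 8, had a WT-shared region within 50 kb, as did 73.5% of all protein-coding genes. The same 7 had one within 10 kb, where the share of all genes was 56.7%. A WT-shared region touched the gene body itself at 6 of the 8, against 43.9% of all genes, the 2 without being Gata1 and Epor. Per 100 kb of window, which allows for gene length, the number of WT-shared regions was 11.6 at Lyl1, 8.60 at Epor, 8.07 at Lmo2, 6.19 at Gata2, 5.20 at Tal1, 3.87 at Klf1, 2.67 at Gfi1b and 0 at Gata1. In plain counts Lyl1 had 12, more than 96.4% of genes, and Lmo2 had 10, more than 92.9%. Gfi1b with 3 stood near the middle of the genome, where the median gene had 2. Gene-dense surroundings differ, since the Epor window holds 8 other protein-coding genes and the Gata2 window holds 1.

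**Figure D2:**
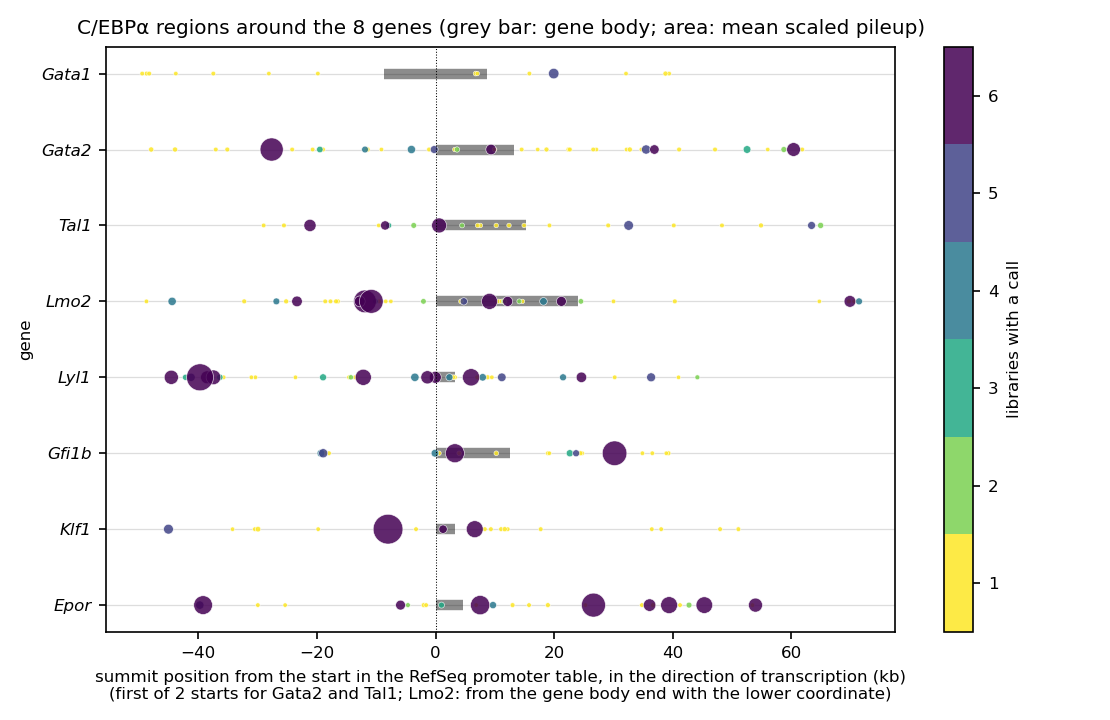
Position of every C/EBPα region around the 8 genes, in kb from the start in the RefSeq promoter table (for Lmo2, which has no entry there, from the lower-coordinate end), with the gene body as a grey bar. Point area grows with the mean scaled pileup and colour gives the number of libraries with a call. The largest point of each gene lies outside the gene body for all but Tal1, and Gata1 has no point called in all 6 libraries.

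At Gata2 (chr6:88193891-88207032, plus strand) the strongest region lay upstream, 27.6 kb before the start, at chr6:88165942-88166438 between genes. Its scaled pileup was 162 and 147 in DC, 137 and 136 in DE, and 128 and 84.1 in WT, so both DC and both DE libraries stood above both WT libraries. The log2 difference was 0.57 ± 0.30 for DC minus WT and 0.40 ± 0.30 for DE minus WT (SE, n = 2 each), and neither passed limma's test (adjusted p = 0.697 and 1.00). Once batch was added to the model the adjusted p became 0.151 for DC and 0.510 for DE. The second region shared by all libraries and nearest to Gata2 lay within the gene, 9.35 kb after the start at chr6:88203012-88203330. There the scaled pileup was 21.6 and 23.0 in DC, 20.9 and 17.0 in DE, and 32.3 and 26.3 in WT, the other way round from the upstream region. The difference did not pass there either (adjusted p = 0.918 for DC and 1.00 for DE by limma). A region that ends just before the start, chr6:88193552-88193819, was called in 5 of 6 libraries, all but WT replicate 1.

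Gata2 also held the most regions with a genotype pattern against WT, 5 of the 38 in its window. Such a region was called in both libraries of a variant and in neither WT library, or the reverse. The Gata2 window also held the most regions of any kind among the 8, and 26 of its 38 were called in 1 library. Of all merged regions, 1.52% were DC-shared and uncalled in WT, and 0.39% had the reverse pattern. For DE the shares were 0.846% and 0.638%. A region 19.5 kb upstream (chr6:88174265-88174452) was called in both DE libraries and in DC replicate 1, at 9.20 and 13.6 in DE and 14.2 in DC, and in neither WT library. Another, 11.9 kb upstream (chr6:88181852-88182098), was called in both DC libraries at 8.03 and 12.3 and in both WT libraries at 11.1 and 11.6, and in no DE library. Inside the gene, chr6:88197438-88197532 was called only in the DC libraries, at 7.41 and 10.7. The pileups named here are low: the smallest pileup that could be called over the background floor corresponds to 3.09 and 6.13 scaled fragments in DC, 5.86 and 4.53 in DE, and 6.05 and 5.25 in WT. The rest of the 5 lay near Eefsec, are given below and include higher pileups.

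At Gata1 (chrX:7959260-7976663, minus strand) little was called. The window held 14 regions, 13 of them in a single library, and none was called in both WT libraries or in all 6. The gene body held 2 of them, called only in DC replicate 1 at a scaled pileup of 3.70 and only in DE replicate 1 at 8.36. The region called most often lay at an end of the neighbouring gene Hdac6, which encodes a deacetylase, at chrX:7947855-7948133. It had 17.3 and 36.8 scaled fragments in DC and 13.4 and 30.6 in DE, against no call in WT replicate 1 and 43.1 in WT replicate 2. In batch 2, the only batch with a WT value, the ratio was 0.854 for DC over WT (95% counting interval 0.494 to 1.45) and 0.710 for DE over WT (0.420 to 1.18). Both intervals hold 1, and in DC and DE the batch 2 library was above the batch 1 library.

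Among the genes of the SCL complex, Lmo2 (chr2:103957903-103981878) had the most shared regions nearest to itself, with 7 called in all 6 libraries. Lmo2 is also the longest of the 8 genes, at 24.0 kb, and 30 of the 37 regions in its window were nearest to it. Over whole windows, Lyl1 had 9 regions called in all 6 libraries and Lmo2 had 8, and 4 of the 34 Lyl1 regions were nearest to Lyl1. The strongest pair of Lmo2 regions lay on the lower-coordinate side of the gene and close together. The region chr2:103946738-103947235 had scaled pileups of 164.9 and 149 in DC, 118 and 126 in DE, and 171 and 111 in WT. The region chr2:103945846-103946187 had 104 and 124 in DC, 113 and 137 in DE, and 132 and 153 in WT. DC and WT overlap in the first and both DC libraries lie below both WT libraries in the second, with limma adjusted p of 0.967 and 0.884 for DC minus WT. Among WT-shared regions of the whole genome, 4.52% and 4.41% stood higher by their mean over the WT libraries. Inside Lmo2, chr2:103966821-103967154 had 69.2 and 62.9 in DC, 66.9 and 65.7 in DE, and 45.4 and 55.7 in WT. Here both variants exceeded WT in both batches, by 0.39 ± 0.33 on the log2 scale in DC and 0.40 ± 0.33 in DE (SE, n = 2 each; limma adjusted p = 0.874 and 1.00).

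The other 4 regions shared by all libraries and nearest to Lmo2 were lower, with scaled pileups between 14.2 and 43.1. Within the gene, chr2:103978981-103979346 had 24.1 and 23.0 in DC, 21.8 and 21.5 in DE, and 15.1 and 17.9 in WT. All 4 variant libraries thus lay above both WT libraries, as they did at chr2:103966821-103967154. The log2 difference was 0.52 ± 0.39 for DC and 0.40 ± 0.39 for DE (adjusted p = 0.840 and 1.00 by limma). The share of all regions with this pattern was not counted. The other intragenic region of these 4, chr2:103969907-103970215, had log2 differences of -0.094 for DC and 0.34 for DE. Its DC over WT ratios were 0.902 and 0.973 in batches 1 and 2, and its DE over WT ratios 0.785 and 2.04. Outside the gene, chr2:103944917-103945283 had -0.50 for DC and -0.30 for DE, and chr2:103934375-103935000 had 0.47 and 0.31. Also within the gene, chr2:103976003-103976177 was called in both DC libraries at 17.3 and 13.8 and in both DE libraries at 17.6 and 13.6. It was called in neither WT library. Just past the higher-coordinate end of the gene, chr2:103982331-103982452 was called in the DE libraries only, at 10.9 and 9.06.

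Tal1 (chr4:115056426-115071755, plus strand) carried its strongest region at its first part, between its 2 annotated starts (chr4:115056566-115057605). The summit lay 0.6 kb after the first start. The scaled pileup was 65.5 and 52.1 in DC, 29.3 and 45.3 in DE, and 72.7 and 51.5 in WT. DC overlapped WT, and both DE libraries were below all the others. The log2 difference was -0.066 ± 0.38 for DC minus WT and -0.75 ± 0.38 for DE minus WT (SE, n = 2 each). Neither passed limma's test (adjusted p = 0.993 and 1.00). The DE value rested mainly on batch 1, where the ratio of DE over WT was 0.403 (95% counting interval 0.261 to 0.612), against 0.880 (0.565 to 1.36) in batch 2. Upstream, 3.68 kb before the start, chr4:115052698-115052887 was called in both WT libraries, at 10.1 and 13.7, and in neither variant.

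Lyl1 (chr8:84701423-84704716, plus strand) lay in the window with the most WT-shared regions, but 1 of the 12 was nearest to Lyl1 itself. That region overlapped the promoter printed above (chr8:84701210-84701821) with scaled pileups of 27.2 and 27.6 in DC, 36.8 and 44.2 in DE, and 24.2 and 31.5 in WT. Both DE libraries were above both WT libraries, by 0.55 ± 0.38 on the log2 scale (SE, n = 2 each; limma adjusted p = 1.00), and DC overlapped WT. The strongest region of the window stood at Ier2, an immediate-early gene, 39.7 kb upstream (chr8:84661435-84662079), with 182 and 207 in DC, 164.8 and 181 in DE, and 181 and 171 in WT. DE overlapped WT there, and both DC libraries were above both WT libraries, with a ratio of DC over WT of 1.005 (95% counting interval 0.832 to 1.22) in batch 1 and 1.21 (0.955 to 1.53) in batch 2. The same summit base was called in all 6 libraries. On the other side, inside Nfix, which encodes a nuclear factor I protein, chr8:84725877-84726195 had 48.8 and 24.5 in DC, 21.8 and 17.0 in DE, and 11.1 and 16.8 in WT.

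Gfi1b (chr2:28609450-28621982, minus strand) carried 1 shared region of its own, inside the gene 3.26 kb after the start (chr2:28618440-28619291). It had scaled pileups of 101 and 98.1 in DC, 95.4 and 92.9 in DE, and 81.7 and 53.6 in WT. Both variants were above WT in both batches, by 0.59 ± 0.33 on the log2 scale in DC and 0.51 ± 0.33 in DE (SE, n = 2 each), and did not pass limma's test (adjusted p = 0.714 and 1.00). Beyond the far end of the gene, 30.2 kb after the start, a stronger region went the opposite way (chr2:28591275-28591995; the nearest gene is Gtf3c5, which encodes a subunit of RNA polymerase III factor TFIIIC). It had 126 and 87.4 in DC, 138 and 104 in DE, and 283 and 161 in WT. By the same ranking, 1.46% of WT-shared regions were higher. A weaker region 22.6 kb after the start, chr2:28599174-28599598, was called in both WT libraries at 15.1 and 25.2, in DE replicate 1 at 10.9, and in neither DC library. Over the promoter itself the region was called in DC at 17.9 and 16.9, in DE replicate 2 at 12.5 and in WT replicate 2 at 15.8.

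Klf1 (chr8:84901982-84905291, plus strand) held 1 region, 1.26 kb after its start at chr8:84903077-84903606, and it was weak. Its scaled pileup was 4.94 and 16.9 in DC, 5.86 and 13.6 in DE, and 13.1 and 27.3 in WT, with the summits of the libraries spread over 388 bp. Within each batch both variants were below WT, while across batches the groups overlap. The log2 difference was -1.05 ± 0.63 for DC and -1.09 ± 0.63 for DE (SE, n = 2 each), without passing the limma test (adjusted p = 0.747 and 1.00; 0.181 and 0.258 with batch as a term). By contrast, the strongest region of all 8 windows lay 8.01 kb upstream, at an end of Gcdh, which encodes the mitochondrial glutaryl-CoA dehydrogenase (chr8:84893707-84894234). It had 228 and 186 in DC, 246 and 199 in DE, and 270.4 and 198 in WT, with both genotypes within 0.17 of WT on the log2 scale.

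At Epor (chr9:21958897-21963576, minus strand) C/EBPα regions surrounded the gene rather than covering it. The single region inside the gene, chr9:21962461-21962707, was called in both DC libraries at 6.18 and 10.7 and in WT replicate 2 at 11.6. Upstream, 5.91 kb before the start and nearest to Rgl3, chr9:21969388-21969620 was called in all 6 libraries with 29.0 and 33.7 in DC, 19.2 and 14.7 in DE, and 13.1 and 11.6 in WT. The deposited fold enrichment of the authors' peaks there was 22.7 and 15.0 in DC, 9.47 and 8.12 in DE, and 4.96 and 4.75 in WT. DC is highest and WT lowest, with no overlap between any of the 3 genotypes. The fold is not scaled between libraries. Relative to the background floor, the median of all regions was itself 0.84 higher in DC and 0.55 higher in DE than in WT on the log2 scale. The pileup of the Rgl3 region was recovered from its fold and p-value, so the fold is not a separate measurement. DC minus DE did not pass limma's test there (adjusted p = 0.545 with batch as a term). Of all regions called in all 6 libraries, 17.2% had both DC libraries above both WT libraries, and 15.0% had them above both DE libraries. The strongest region of the window, inside Plppr2 (chr9:21936724-21937098), had 132 and 129 in DC, 133 and 126 in DE, and 176 and 157 in WT. Both variants were below WT there by 0.35 and 0.36 ± 0.27 on the log2 scale, which did not pass (limma adjusted p = 0.853 for DC and 1.00 for DE).

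**Figure D3:**
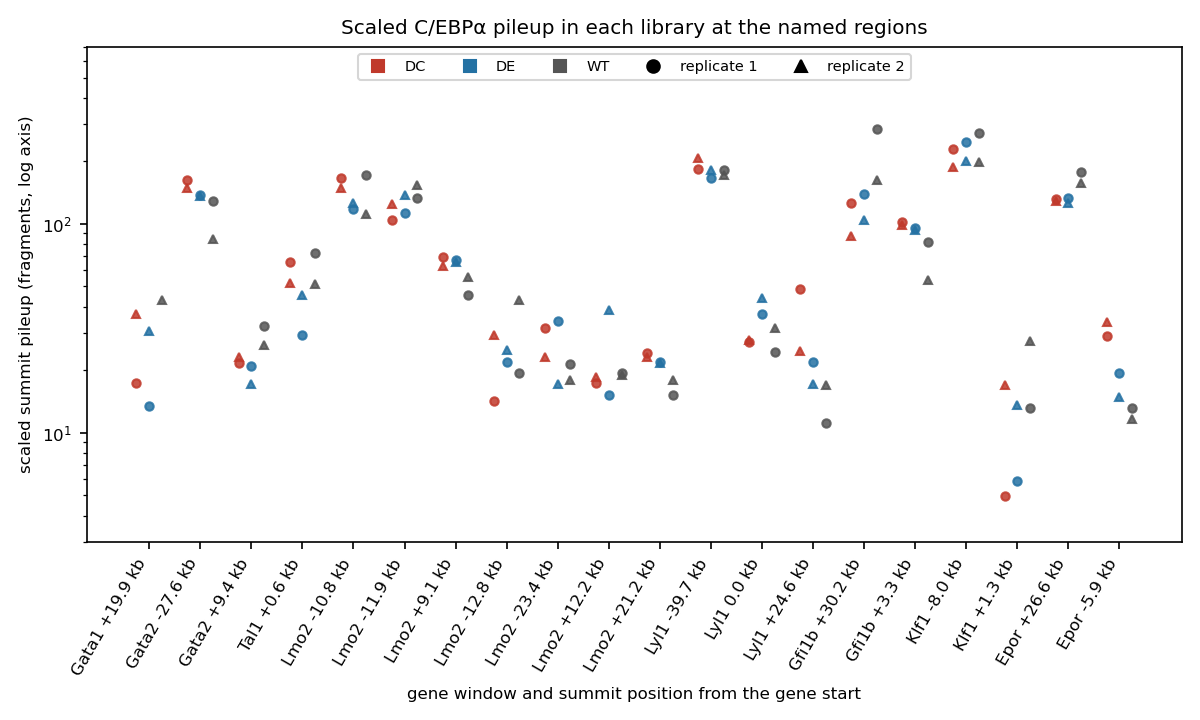
Scaled summit pileup (log axis) in each library at the named regions, ordered by gene, with DC in red, DE in blue and WT in grey and the replicates as circles and triangles. The Gfi1b +30.2 kb region shows both WT libraries, at 283 and 161, above the 4 variant libraries, and the Epor -5.9 kb region shows both DC libraries, at 29.0 and 33.7, above all others.

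Whether the enhancer genotype changed C/EBPα binding at these genes was tested on 23476 regions called in all 6 libraries, of which 37 lay in the 8 windows. Without a batch term limma called 0 of the 37 for DC minus WT, 0 for DE minus WT and 0 for DC minus DE, and also 0 (0.0%) of all 23476 in each comparison. At an unadjusted p under 0.05, 4, 2 and 1 of the 37 passed, against 1877, 1144 and 554 of all regions. The median log2 difference of the 37 was -0.066 for DC, -0.053 for DE and 0.033 for DC minus DE, against -0.020, -0.0041 and -0.0029 over all regions. DC and DE share the WT libraries as control, so the first 2 comparisons are not independent.

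With batch as a term, which the labels allow because every genotype has 1 library in each batch, 3 of the 37 regions passed for DC minus WT, where 4.34% of all regions did. Of these, 2 rose, where 3.14% of all regions rose, and 1 fell, where 1.19% fell. The Nfix region of the Lyl1 window rose by 1.34 ± 0.40 on the log2 scale (SE, n = 2 each; adjusted p = 0.0320), higher in DC in both batches. The Rgl3 region upstream of Epor rose by 1.35 ± 0.40 (adjusted p = 0.0328), also in both batches. The region between Gfi1b and Gtf3c5 had a log2 difference of -1.02 ± 0.22 (adjusted p = 0.00136), lower in DC in both batches. In DE minus WT the Gfi1b and Gtf3c5 region alone passed, with -0.83 ± 0.22 (adjusted p = 0.0316), where 0.273% of all regions fell, 1.13% rose and 1.41% changed in all. None of the 37 passed for DC minus DE, where 0.00426% of all regions rose and 0.00852% fell, 0.0128% together. At an unadjusted p under 0.05 with batch as a term, 10, 4 and 5 of the 37 passed for DC minus WT, DE minus WT and DC minus DE, against 3969, 2811 and 1913 of all 23476 regions. None of the 3 regions has one of the 8 genes as its nearest gene.

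Within batches, the Gfi1b and Gtf3c5 region gave ratios of DC over WT of 0.446 (95% counting interval 0.371 to 0.536) in batch 1 and 0.544 (0.394 to 0.742) in batch 2. The ratios of DE over WT there were 0.489 (0.401 to 0.594) and 0.648 (0.495 to 0.845). At the Epor and Rgl3 region the DC over WT ratios were 2.21 (1.18 to 4.46) and 2.92 (1.36 to 6.67). At the Nfix region they were 4.40 (2.33 to 9.16) in batch 1 and 1.46 (0.683 to 3.12) in batch 2, so that the rise there rests on batch 1, which holds DC replicate 1. Without DC replicate 1 its log2 difference was 0.78 (adjusted p = 0.659), and without WT replicate 1 it was 0.70 (adjusted p = 0.552). The Gfi1b and Gtf3c5 call for DC was lost without DC replicate 1, DC replicate 2 or WT replicate 1 (adjusted p = 0.150, 0.103 and 0.116), and its DE call was lost without any 1 of the 6 libraries. The Epor and Rgl3 call was lost without any 1 of the DC or WT libraries (adjusted p from 0.134 to 0.477). In each of these refits both regions kept their direction. All these intervals cover counting error only. Scaled by each library's background floor in place of shared regions, the Gfi1b and Gtf3c5 differences became -0.16 for DC and -0.28 for DE (limma adjusted p = 0.841 and 0.837, batch included). That scaling adds the same amount to every region of a comparison. It moves the median of all regions to 0.84 for DC minus WT and 0.55 for DE minus WT. A region's place relative to the median cannot change under it, so that place is no separate support for the fall.

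**Figure D4:**
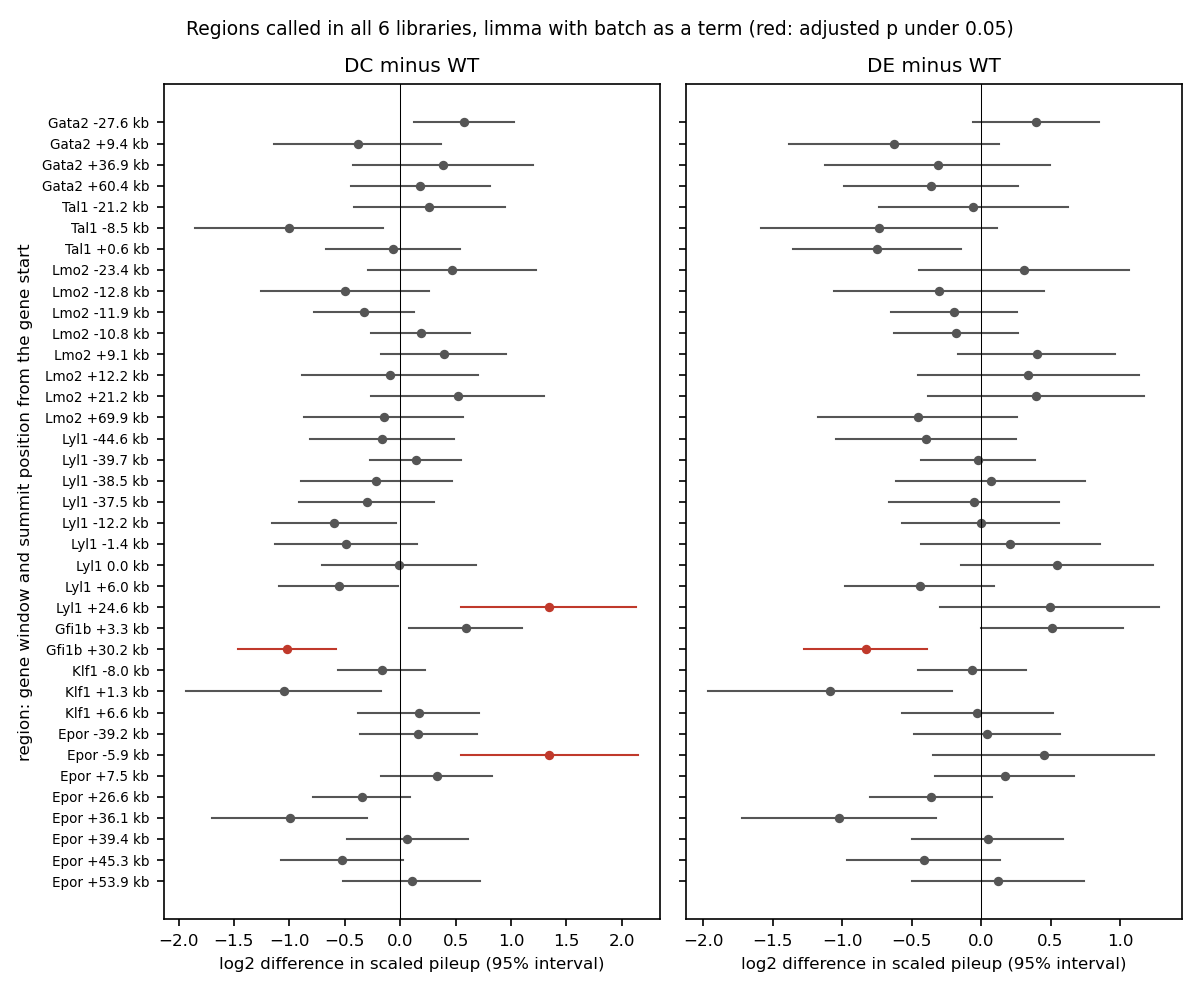
Log2 difference in scaled pileup, DC minus WT (left) and DE minus WT (right), for each of the 37 regions called in all 6 libraries, from limma with batch as a term; points are estimates, lines 95% intervals, and red marks an adjusted p under 0.05. On the left 3 regions are red, at 1.34 and 1.35 in the Lyl1 and Epor windows and -1.02 in the Gfi1b window, and 1 on the right, at -0.83 in the Gfi1b window.

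Groups that did not overlap were frequent in all data. Of the 37 regions both DC libraries were above both WT libraries in 9 and below them in 10, where 17.2% and 16.8% of all regions were. Both DE libraries were above WT in 8 and below in 9, where 16.1% of all regions were in each direction. Both DC libraries stood above both DE libraries in 11 and below in 4, against 15.0% and 15.3% of all regions. By presence of a call, 6 regions of the 210 were DC-shared and uncalled in WT, where 1.52% of all merged regions were, and 3 had the opposite pattern, where 0.39% were. As a share of the lists they come from, these were 6 of 61 DC-shared regions, against 10.9% of all DC-shared regions, and 3 of 51 WT-shared ones, against 3.23%. For DE and WT, 4 regions were DE-shared and uncalled in WT, where 0.846% of all regions were, and 4 were WT-shared and uncalled in DE, where 0.638% were. These were 4 of 54 DE-shared regions, against 6.55%, and 4 of 51 WT-shared ones, against 5.28%. The share of a library's regions that fell in the 8 windows was 0.0918% and 0.142% in DC, 0.138% and 0.131% in DE, and 0.0960% and 0.132% in WT. No difference between genotypes passed (exact permutation test, two-sided, p = 1 for DC and 0.667 for DE against WT, n = 2 each), in a design that cannot give a p below 0.333.

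The remaining regions of this kind lay nearer to other genes. Those in both DC libraries and neither WT library were at Eefsec (chr6:88246274-88246596, at 9.26 and 41.4 in DC), at Cyp4x1 (chr4:115121275-115121527, 7.41 and 23.0), at Tmem205 (chr9:21920655-21920906, 13.0 and 12.3) and at Swsap1 (chr9:21953730-21954014, 13.0 and 15.3). The Swsap1 region was also called in both DE libraries, at 12.5 and 10.2. A second region near Eefsec, chr6:88252444-88252732, was called in the WT libraries only, at 16.2 and 10.5. Inside Nacc1 in the Lyl1 window, chr8:84682185-84682586 was called in DC replicate 1 at 14.2, in neither DE library, and in both WT libraries at 24.2 and 9.46.

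By position, 22.4% of the 210 regions lay within 1 kb of an end of a protein-coding gene, 36.7% inside a gene and 41.0% between genes, against 8.48%, 43.1% and 48.4% of all merged regions. Among the 37 shared regions the shares were 32.4%, 35.1% and 32.4%, against 23.3%, 39.4% and 37.3% of the 23480 regions shared by all libraries. The windows were drawn around genes, which sets part of this.

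Other genes of the same circuits were occupied in most cases, meaning a WT-shared region within 50 kb, as were 73.5% of all protein-coding genes. All 12 partners of the GATA and SCL complex had such a region. They ranged from 3 such regions at Tcf3, which encodes an E protein, to 26 at Runx1, and the highest mean scaled pileup was 488 at Nfe2, the p45 subunit of the factor NF-E2. Of 12 paralogs, 11 were occupied, with a maximum of 473 at Klf2, and Lmo3 had none. Of 16 erythroid genes, 14 were occupied, led by Tfrc, the transferrin receptor, at 142. The β-globin gene Hbb-bt and the haem synthesis gene Alas2 had none. All 8 megakaryocyte genes were occupied, again led by Nfe2. These genes are not all separate cases: Pf4 and Ppbp had the same strongest region, and Itga2b shared its own with the erythroid gene Slc4a1. Of 7 mast cell and basophil genes, 5 were, led by Hdc, the histidine decarboxylase gene, at 183, while Fcer1a and Tpsb2 had none.

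The median number of WT-shared regions was 7.5 for the partners, 5.5 for the megakaryocyte genes, 4 for the mast cell and basophil genes, 3 for the paralogs and 2.5 for the erythroid genes, against 2 over all genes. A WT-shared region touched the gene body at 10 of 12 partners, 4 of 8 megakaryocyte genes, 3 of 7 mast cell and basophil genes, 7 of 12 paralogs and 7 of 16 erythroid genes, against 43.9% of all protein-coding genes. Genes of the sort gate and of its myeloid factors, Kit, Flt3, Cd34, Spi1 and Cebpa, all had such a region in the gene body, with the highest pileup of 294 at Spi1. All 4 B lymphoid markers and all 3 T and NK markers had one within 50 kb, where 73.5% of all protein-coding genes did. These data give binding and not RNA, so the sorted cell type cannot be checked from them by expression.

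In the limma test without a batch term 0 regions of these lists passed, as in the whole table. With batch as a term, 1 of 49 paralog regions rose and 1 fell for DC minus WT, and 2 of 16 mast cell and basophil regions rose, against 3.14% and 1.19% of all regions. A region 10.3 kb from Lmo1, which encodes an LMO2 paralog, rose in pileup by 1.503 ± 0.39 on the log2 scale (adjusted p = 0.0112, SE, limma with batch). A region that overlaps Mitf, which encodes a mast cell and melanocyte factor, rose by 1.28 ± 0.38 (adjusted p = 0.0321). The region of the Ms4a2 window that lies in Ms4a3 rose by 1.07 ± 0.28 (adjusted p = 0.0115). The region that fell lay 22.8 kb from Klf2 and was named after its value was seen, with -1.82 ± 0.43 (adjusted p = 0.00373). The Lmo1, Mitf and Ms4a3 calls were each lost without any 1 of the DC or WT libraries, with adjusted p from 0.0506 to 0.203 for Lmo1, 0.107 to 0.462 for Mitf and 0.0769 to 0.315 for Ms4a3. The Mitf call was also lost over the 4 libraries compared (adjusted p = 0.0537), and the Ms4a3 call under floor scaling with batch (0.0576). The Klf2 call was lost without DC replicate 1 (0.0725), DC replicate 2 (0.0735) or WT replicate 2 (0.310), and floor scaling with batch gave -0.96 (0.282). No region passed among 73 of the partners, 33 of the erythroid genes, 33 of the megakaryocyte genes, 25 of the sort gate, 8 of the B lymphoid markers and 4 of the T and NK markers, in either DC or DE minus WT. Median differences for DC minus WT were 0.058 for the partners, 0.020 for the erythroid genes, -0.032 for the megakaryocyte genes, 0.18 for the mast cell and basophil genes and -0.18 for the paralogs, against -0.020 over all regions.

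As a description of pattern, the summed scaled pileup within 50 kb of each gene was compared over the 6 libraries with that of genes of like level. The closest gene was Arglu1 for Gata1 (Pearson's r = 0.991), Zfp1 for Gata2 (0.990), Vmn2r19 for Tal1 (0.993), Galnt6 for Lmo2 (0.985), Slc27a1 for Lyl1 (0.997), Il21r for Gfi1b (0.997), Trafd1 for Klf1 (0.997) and B4galt3 for Epor (0.990). Between 3131 and 8303 genes were compared for each, and 0.703% to 4.35% of them had an r over 0.9. Each closest gene is thus the best of many compared over 6 libraries that share batches.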

How the data were processed

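C/EBPα CUT&RUN peak lists of 6 libraries were analysed, 2 for each of DC, DE and WT. The submitters' processing notes name MACS2 2.2.9.1, Bowtie2, HOMER, SAMtools and Trimmomatic, and the build mm10. Settings and the use of IgG as a control were not given in the sources used here. The authors' deposited lists, named for a q of 0.1, give a fold (a ratio of summit to local background), a −log10 p-value, a −log10 q-value and a score, which equals that −log10 q times 10 without its decimals. The merged coordinate table was not used.

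Peaks were merged at 1 bp overlap (Python 3.11.15, pandas 2.3.3). Gene positions and promoters came from RefSeq tables of the same assembly. 7 of the 8 genes matched the promoter table and Lmo2 had no entry. The pileup k and local background λ solve fold = (k + 1)/(λ + 1) together with the Poisson p-value, at a tolerance of 5% of a step. In a region with several peaks of a library the highest pileup was taken. Pileups were scaled by the median log2 difference over shared regions and tested with limma 3.58.1 (R 4.3.3; trended, Benjamini-Hochberg over 23476 regions, threshold 0.05), with 4 of 23480 regions lacking a pileup. The fit without batch was the planned one and batch was the alternative. Batch pairs the libraries by the labels, and batch deviations correlated across regions with r of 0.548 for DC and WT, 0.415 for DE and WT and 0.384 for DC and DE. Scripts were tested on simulated data.

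Members and lists were chosen with earlier results of these data known. Named regions are, for each gene, the strongest, the nearest, those shared by all libraries and nearest to it, those called in both libraries of 1 genotype and neither of another, and those past the threshold. From the lists, the highest gene, genes without a region and genes past the threshold are named. Counting intervals are exact 95% binomial and cover counting error only, since fragments had no molecular identifiers. Sequences of the regions themselves were not used here.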

Additional observations from a re-analysis of the deposited data

How the results depend on the processing

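Counts depend on the window. Within 10 kb of the gene bodies 15 regions were called in all 6 libraries, 27 in both DC, 21 in both DE and 19 in both WT libraries, with 3 in both DC and neither WT library and 1 in both WT and neither DE library. Within 100 kb, 60, 99, 83 and 88 were called in all 6, both DC, both DE and both WT libraries. Counting only regions nearest to 1 of the 8 genes gave 13, 22, 21 and 18, with 2 and 2 of the last 2 kinds. A q of at most 0.01 or 0.001, or an overlap of at least 0.5 of the shorter peak, kept each of these counts within 1.5 times. The difference in window share, DC minus WT, turned to -0.00698 percentage points at 100 kb and lay between -0.0219 and 0.0283 when a library was left out.

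The replicate block (batch as a term) moved the calls for DC minus WT to 3 and for DE minus WT to 1. With the block, DC minus WT gave 2 under background floor scaling (a pairing of choices made after seeing the data), 3 with a mean pileup of at least 20, 2 at a q of 0.01 or less, 3 under quantile normalization, 2 over regions called in the 4 libraries compared, and 0 to 3 with a library left out. DE minus WT gave 1 with that pileup minimum, that q or quantile normalization, and 0 under floor scaling, over the 4 libraries compared or with any library left out. The smallest adjusted p with a library left out was 0.0512 for DE minus WT. DC minus DE had 0 calls in every setting run.

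Directions of uncalled differences turned in some settings. Floor scaling adds the same amount to every region of a comparison, so small negative differences turn under it by construction. The cause of the other turns was not tested. Under floor scaling, with or without the block, the Tal1 start became 0.79 for DC, Gcdh 0.69 for DC and 0.49 for DE, Plppr2 0.51 for DC and 0.19 for DE, Ier2 0.53 for DE and the strongest Lmo2 region 0.37 for DE. All of these lie below the median region under that scaling, as they did before it, since the scaling cannot change this. With a library left out the strongest Lmo2 region gave -0.11 for DC and 0.058 and 0.11 for DE, the Tal1 start 0.13 and 0.26 for DC, Ier2 0.015 and 0.094 for DE, Nfix -0.14 for DE and Gcdh 0.014 for DE. Depth is unknown, and 2 libraries a genotype limit every test.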
